A study of Mus musculus with 2 samples.

Results

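The 41 genes described here are cell cycle genes, taken by symbol from a list of genes of DNA replication (S phase) and of G2 and mitosis (G2/M), out of 32285 genes in the matrices. All 41 were found: 23 are G2/M genes, 17 are S genes, and Stmn1, which codes for the microtubule-destabilising protein stathmin, was put in neither phase. They were followed across immune cell types of lung tumours in 2 droplet single-cell RNA libraries, 1 for each of 2 groups. Recipients in both groups were lethally irradiated mice with the alleles KrasLSL-G12D/+ and Lkb1fl/fl (KL mice). Ad-Cre, an adenovirus carrying Cre recombinase, was given through the nose 8 weeks before the cells were taken. In WTKL the donor marrow was Tmem173fl/fl, and in LYZKL it was Tmem173fl/fl;Lyz2-Cre. Lyz2-Cre is active in the myeloid lineage and Tmem173 codes for STING. Donor-derived cells carry Lyz2-Cre in LYZKL alone, while donor-derived cells of both groups carry the floxed gene. Tamoxifen is named in the treatment label of WTKL alone, so the labels of the groups differ by more than Lyz2-Cre. Cells positive for CD4 or CD8 were sorted, and the labels do not state how many mice each library pools.

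A dividing cell first licenses its replication origins with the MCM2 to MCM7 helicase, which CDT1 and CDC6 load, and then copies its DNA with the sliding clamp PCNA and the nucleotide-making enzymes TYMS, RRM1, RRM2 and TK1. It then builds cyclins A and B with the kinase CDK1, and the Aurora and Polo kinases, kinesins and kinetochore proteins carry it through mitosis until CDC20 and UBE2C drive the destruction of the cyclins. E2F transcription factors are known to drive the S genes, and the DREAM and MuvB complexes are known to act on the G2/M genes through promoter elements called CHR (cell cycle homology region) beside CCAAT boxes. Resting T cells hold these genes low, and T cells stimulated through their receptor divide within a tumour or its draining nodes.

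The promoters of 5 members are shown because they carry the elements by which the S and the G2/M genes differ. They come from RefSeq's promoter table of build GRCm38.p6 and run from 170 bases before to 30 bases after the annotated start, so the last 30 bases lie in the first exon. Capitals mark CCAAT, the CHR letters TTTGAA or TTCGAA, and the E2F forms TTTCCCGC, TTTCGCGC, TTTGCCGC or TTTGGCGC without their first T (7 letters), each on either strand. Ccnb2 (chr9:70421525-70421724, minus strand) codes for cyclin B2, Top2a (chr11:99024160-99024359, minus strand) for DNA topoisomerase II alpha and Cdk1 (chr10:69352883-69353082, minus strand) for the mitotic kinase. Mcm5 (chr8:75109339-75109538, plus strand) and Mcm6 (chr1:128359676-128359875, minus strand) code for subunits of the replicative helicase.
Ccnb2: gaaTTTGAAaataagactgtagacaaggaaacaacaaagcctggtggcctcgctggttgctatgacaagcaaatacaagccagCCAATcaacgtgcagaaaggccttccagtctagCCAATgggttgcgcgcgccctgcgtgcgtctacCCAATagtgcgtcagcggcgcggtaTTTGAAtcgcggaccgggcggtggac
Top2a: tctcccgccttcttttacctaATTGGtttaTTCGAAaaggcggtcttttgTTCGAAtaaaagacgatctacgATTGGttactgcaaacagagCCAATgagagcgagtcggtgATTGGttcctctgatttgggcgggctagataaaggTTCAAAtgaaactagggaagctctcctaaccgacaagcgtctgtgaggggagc
Cdk1: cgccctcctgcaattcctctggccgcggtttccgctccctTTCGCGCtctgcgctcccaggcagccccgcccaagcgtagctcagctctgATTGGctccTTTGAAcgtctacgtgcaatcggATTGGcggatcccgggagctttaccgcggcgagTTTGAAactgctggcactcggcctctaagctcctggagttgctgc
Mcm5: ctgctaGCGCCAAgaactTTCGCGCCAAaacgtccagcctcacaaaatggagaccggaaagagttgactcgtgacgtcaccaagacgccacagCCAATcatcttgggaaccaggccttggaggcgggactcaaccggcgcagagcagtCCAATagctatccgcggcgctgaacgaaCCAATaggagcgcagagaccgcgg
Mcm6: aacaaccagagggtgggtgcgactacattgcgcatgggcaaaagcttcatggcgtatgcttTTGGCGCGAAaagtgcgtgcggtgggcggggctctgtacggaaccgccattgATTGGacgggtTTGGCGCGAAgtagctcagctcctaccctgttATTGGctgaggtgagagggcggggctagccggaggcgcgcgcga

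In the sequences above, the 3 G2/M promoters pair CCAAT boxes with CHR letters, and the 2 Mcm promoters pair CCAAT boxes with E2F letters and hold no CHR. Over the full table windows of 300 bases (250 before to 50 after the start), 33 of the 41 members had an entry. CCAAT stood in 16 of 19 G2/M promoters (84.2%) and in 9 of 14 S promoters (64.3%), against 41.1% of all 27025 genes in the table. The CHR letters stood in 14 of 19 G2/M promoters (73.7%) and in 2 of 14 S promoters (14.3%), against 21.7% of all genes. All 14 of those G2/M promoters also held CCAAT, a pair found in 8.61% of all genes. The 8-letter E2F forms, which contain the 7-letter ones, stood in 7 of 14 S promoters and in 1 of 19 G2/M promoters, that of Cdk1, against 2.61% of all genes. The 7-letter forms marked above stood in 9 of 14 S promoters and in 5 of 19 G2/M promoters, against 10.9% of all genes, so the phases differed less in them. The members' promoter windows had a median GC content of 58% against 52.7% over all windows in the table. Among the 15753 of 32851 promoter windows with a GC content of 50.1% to 68.5%, which leaves out the members' extremes on both sides, the shares of windows were 37.6% for CCAAT, 13.4% for CHR, 5.25% for both and 3.15% for the 8-letter E2F forms. The letters TATAAA stood in 0 of the 33 member promoters and in 15.7% of all. These matches describe letters and not bound sites.

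The libraries hold 12204 and 13607 barcodes in WTKL and LYZKL, where the labels state 6609 and 7202 cells, and 12003 and 13451 were kept. Kept cells had a median of 4840 and 5327 unique molecular identifiers (UMIs, 1 per captured RNA molecule). The members took 0.117% and 0.134% of all UMIs. Despite the sort, neutrophil-gated, B-gated and phagocyte-gated cells were present, and 1888 (15.7%) and 2352 (17.5%) barcodes passed the marker gates of more than 1 lineage and were kept apart. The 2 libraries share 100 barcodes, of which 94 and 100 were kept. Tmem173, the floxed gene, was at 17 counts per 1000000 UMIs (CPM) in neutrophil-gated cells of WTKL and at 3.20 in those of LYZKL. These levels rest on 78 and 25 UMIs and give a log2 ratio of -2.41 (95% interval -3.12 to -1.75). In phagocyte-gated cells it was at 49.1 and 56.4 CPM, a log2 ratio of 0.20 (95% interval -0.29 to 0.68), which does not show the loss that the LYZKL label names. In all T-gated cells it was at 28.2 and 46.6 CPM (0.73, 0.63 to 0.83), higher in LYZKL. The reads come from the 3' end of transcripts and the deleted exons are not given in the sources used here, so none of these values tests the deletion. WTKL and LYZKL below therefore mean the libraries so labelled. With 1 library per group there is no test between groups and no p-value. Each interval covers counting error at 95% and not the spread between mice, and intervals of CPM are too narrow because the UMIs of members sit together in few cells.

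Cells were compared at equal depth by thinning each to 2000 UMIs, and a cell was said to hold S genes, or G2/M genes, when at least 3 distinct members of that phase had a UMI. Most T-gated cells held few members: 37.6% of WTKL and 37.5% of LYZKL T-gated cells had a UMI of none of the 41. At the other end, 174 of 7577 WTKL cells (2.30%) and 235 of 7764 LYZKL cells (3.03%) had 10 or more, and the fullest cell had 23 and 24. The cells with S or G2/M genes made up 480 of 7577 T-gated cells in WTKL (6.33%) and 564 of 7764 in LYZKL (7.26%), and they held 48.1% and 55.3% of the members' UMIs.

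Among the cell types of over 100 cells, double-positive T cells held S or G2/M genes most often in WTKL (10.6%, 8.17 to 13.4). Double-positive cells have a UMI of Cd8a or Cd8b1 together with one of Cd4 or Foxp3, so Foxp3-gated cells have no Cd8 UMI. Next came Foxp3-gated cells (regulatory T cell type, 7.64%, 5.44 to 10.4), CD8-gated cells (7.39%, 6.26 to 8.64) and Foxp3-negative CD4-gated cells (5.76%, 5.02 to 6.57). Each of these neighbours overlaps the next in its interval. T cells with neither coreceptor were lower (3.34%, 2.31 to 4.66), then phagocyte-gated cells (2.67%, 0.731 to 6.69) and B-gated cells (2.14%, 0.984 to 4.03). In LYZKL the order was Foxp3-gated cells (12.9%, 10.2 to 16.0), double-positive cells (10.2%, 7.98 to 12.8), CD4-gated cells (7.83%, 6.92 to 8.81), CD8-gated cells (5.66%, 4.79 to 6.63), cells with neither coreceptor (3.83%, 2.60 to 5.42), phagocyte-gated cells (1.48%, 0.180 to 5.25) and B-gated cells (1.01%, 0.210 to 2.93). Of these neighbours, CD4-gated and CD8-gated cells are the pair whose intervals do not meet.

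Neutrophils leave the cell cycle before they enter the blood, and neutrophil-gated cells gave 2 of 1107 (0.181%, 0.022 to 0.651) and 2 of 1785 (0.112%, 0.014 to 0.404). Their median depth was 3414 and 3722.5 UMIs, against 4880 and 5481 in T-gated cells, before thinning. The share is a reference from a type outside the cycle. The CD4-, CD8-, Foxp3-gated, double-positive and coreceptor-negative T cells lie above it in both libraries. Summed S members were at 117 and 146 CPM in neutrophil-gated cells, against 548 and 569 in all T-gated cells. The share therefore does not give the rate at which 3 S genes meet in T cells that do not divide. That rate was not tested. For single genes the neutrophil-gated shares were higher: Pcna had a UMI in 11.6% and 15.9% of neutrophil-gated cells against 20.1% and 18.8% of T-gated cells. Mki67, the gene of the proliferation marker Ki-67, had one in 1.81% and 2.58% of neutrophil-gated and in 7.01% and 9.48% of T-gated cells. Gamma-delta-gated cells gave 0 of 7 and 0 of 10 and NK-gated cells 0 of 10 and 0 of 16, where 3 counts of the total, used as the limit for a count of 0, allow shares of up to 42.9%, 30%, 30% and 18.8%. Double-positive cells were also the deepest T cells (median 6182.5 and 7283 UMIs), and the part of joined CD4 and CD8 cells in them was not tested. T cells with neither coreceptor had a median of 4020.5 and 4582.5 UMIs. Coreceptors were read on counts before thinning, so a deeper cell more easily showed a UMI of Cd4 or Cd8 and left that type. The part of depth in the order of the T cell types was not tested.

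**Figure D1:**
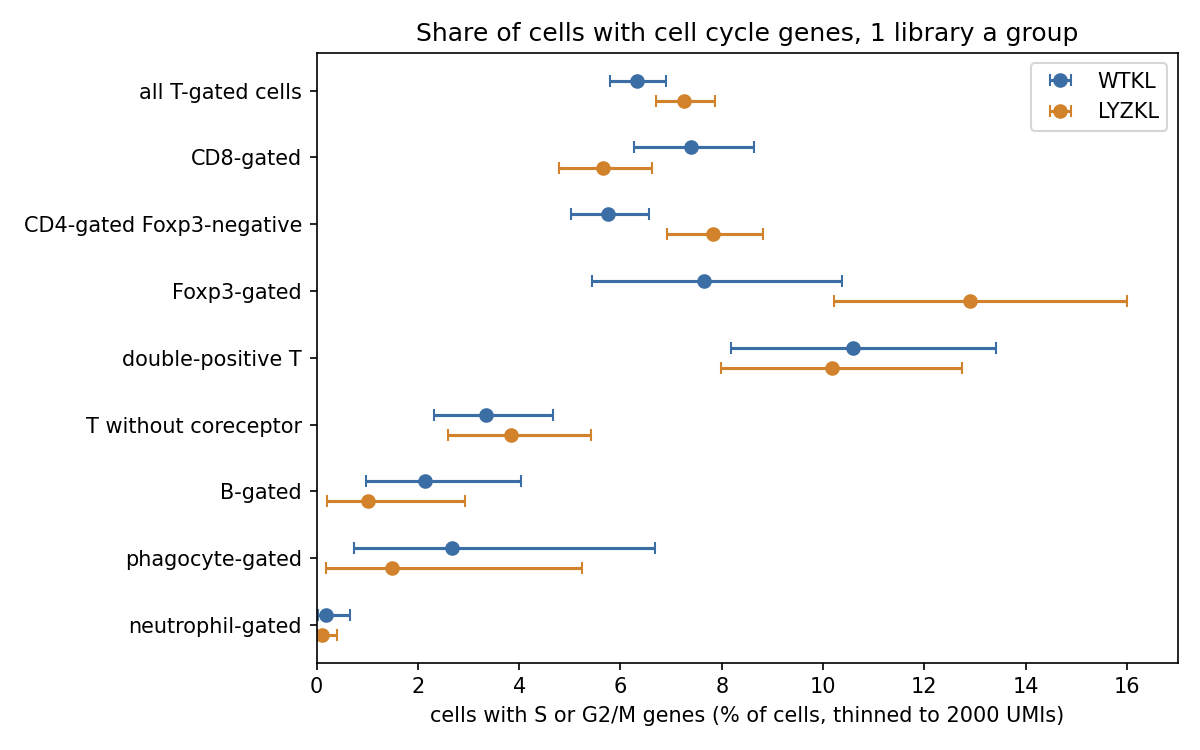
Percent of cells with S or G2/M genes at 2000 UMIs in each gated type, WTKL in blue and LYZKL in orange, with 95% counting intervals. CD8-gated cells stand higher in WTKL (7.39 against 5.66%), CD4-gated and Foxp3-gated cells stand higher in LYZKL, and neutrophil-gated cells are near 0.

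The members differed among themselves in the phase they marked, judged with the call repeated without the member in question. Mki67 had a UMI in 91.3% of WTKL and 92.5% of LYZKL T cells with both S and G2/M genes and in 76.0% and 76.5% of those with G2/M genes alone. In cells with S genes alone it was found in 14.0% and 20.9%, and in cells with neither in 4.40% and 5.84%. Ki-67 RNA therefore marked few of the cells called by S genes alone. Ccnb2 was sharper, with 50.4% and 44.3% in cells with G2/M genes alone and 1.27% and 2.79% in cells with S genes alone. Top2a, which untangles DNA ahead of mitosis, was found in 49.1% and 50.6% of the G2/M-only cells and in 15.2% and 12.2% of the S-only cells. Of the 23 G2/M members, 16 were found more often in G2/M-only than in S-only cells in both libraries, 0 the other way round, and 7 had no ratio because 0 S-only cells of a library held a UMI (Ccnb1, Cenpf, Aurka, Bub1, Hmmr, Plk1 and Kif20a).

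The S members split in their pattern. Pcna was found in 32.9% and 31.5% of S-only cells and in 19.7% and 26.8% of G2/M-only cells, where cells with neither gave 19.3% and 17.6%, so the G2/M-only cells were near the latter in WTKL and nearer the S-only cells in LYZKL. Mcm5 was found in 10.0% of S-only and 5.51% of G2/M-only cells of WTKL, and Mcm6 in 22.3% and 13.4%. In all, 9 of the 17 S members lay on the S side in both libraries. Tyms, Rrm1, Rrm2 and Tk1, the 4 enzymes that make nucleotides, lay on the G2/M side in both: Rrm2 was found in 8.44% and 9.0% of S-only cells and in 20.3% and 16.8% of G2/M-only cells. All 17 S members were found most often in cells with both S and G2/M genes, and so were 8 of the 23 G2/M members in both libraries. Stmn1 followed the G2/M genes, with 66.7% and 68.2% in G2/M-only cells against 21.7% and 17.8% in S-only cells.

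**Figure D2:**
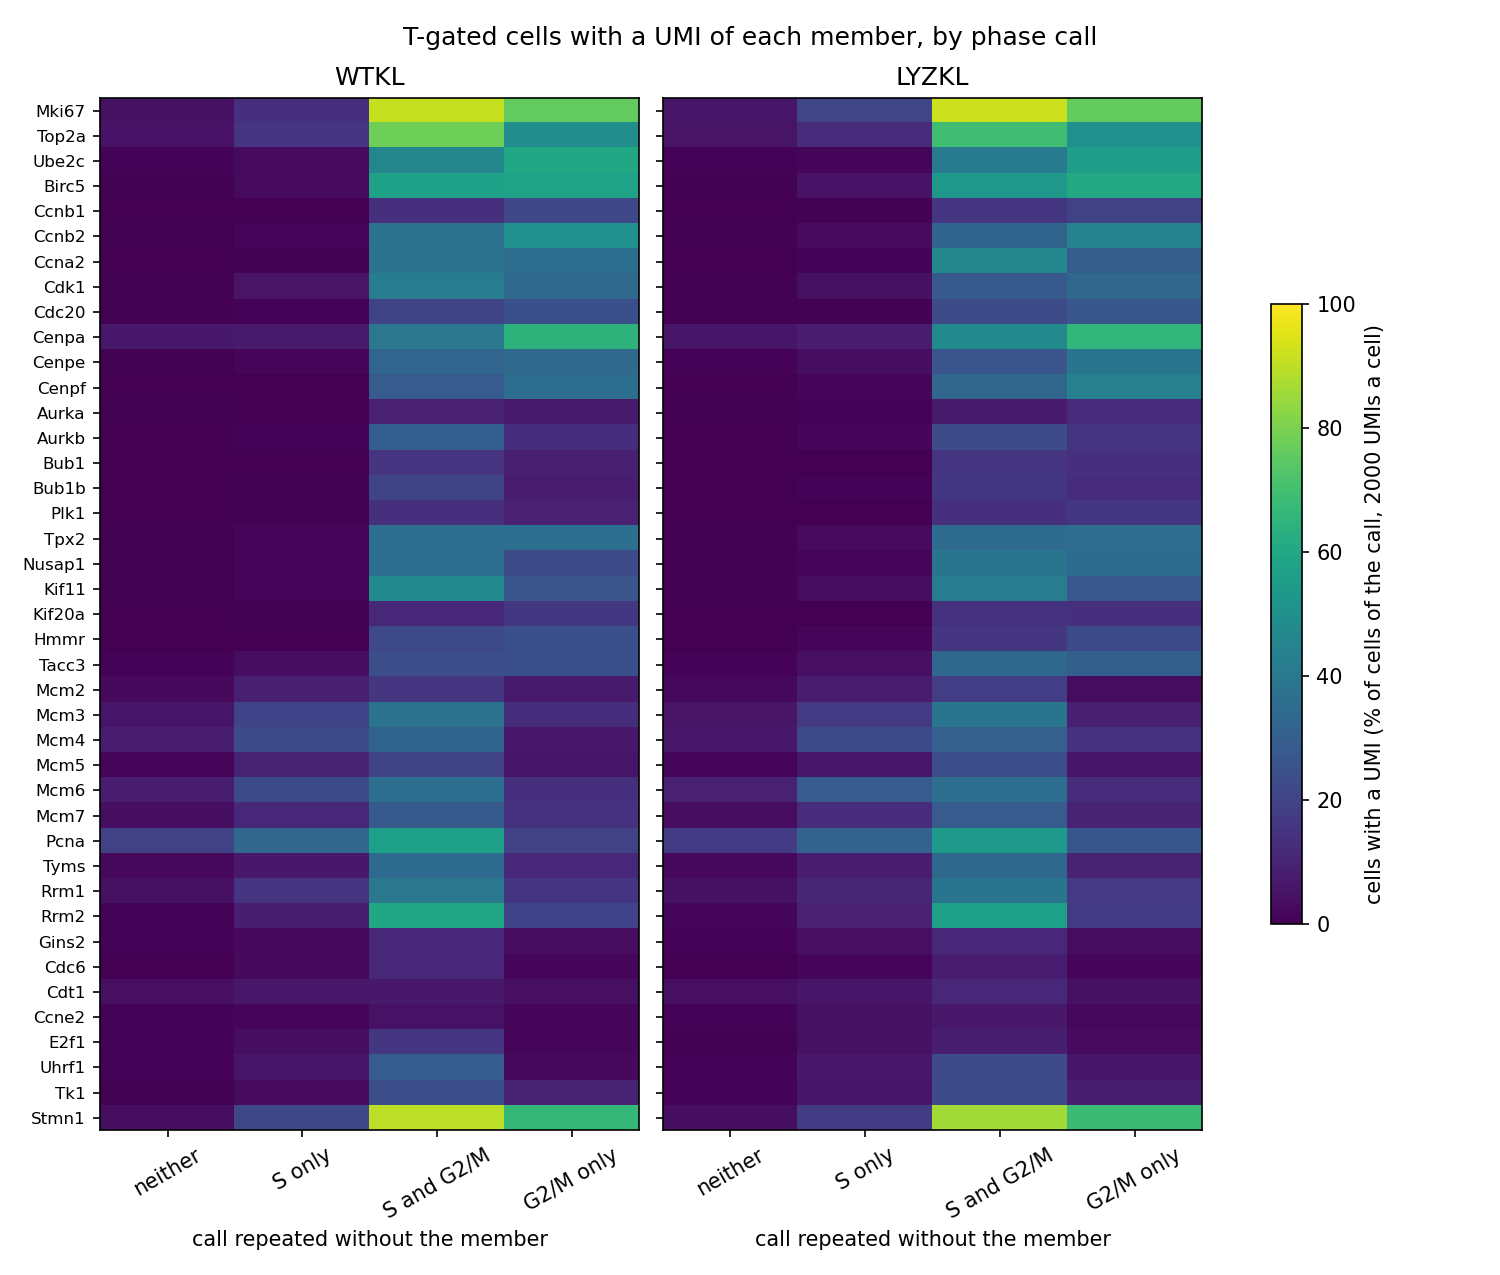
Percent of T-gated cells with a UMI of each member at 2000 UMIs (colour scale), by phase call made without that member and by library. Mki67 reaches 91.3 and 92.5% in cells with both phases, and Rrm2, unlike Pcna, is found more often in G2/M-only than in S-only cells.

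Cells with both phases also held more RNA: before thinning their median was 14689 UMIs in WTKL and 15191.5 in LYZKL, 3.02 and 2.80 times that of cells with neither (4863 and 5434). G2/M-only cells had 11161 and 11146, and S-only cells 5550 and 7077. Since summed CPM weight cells by their UMIs, these cells count for more in a CPM than in a share of cells.

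Beyond the members, the cells with S or G2/M genes carried the rest of the division machinery in both libraries, here measured on the thinned counts. Against the other T-gated cells, all 19 measured genes of a second replication list were at least 1.5-fold higher in both libraries (median log2 difference 2.06 and 1.98), while over all genes 13.3% were that much higher in each library, 17.1% and 18.2% that much lower, and the median was -0.04 and -0.05. Of a second mitosis list 28 of 28 measured genes were higher in WTKL and 28 of 29 in LYZKL, with medians of 3.79 and 4.11. Pclaf, a partner of PCNA, was at 384 CPM in these cells and 3.03 in the others of WTKL, and at 395 and 2.71 in LYZKL. Cdca8, of the chromosomal passenger complex, was at 124 and 2.18 CPM in WTKL and at 193 and 3.82 in LYZKL. Histone genes led the genes on no list, such as Hist1h1b at 435 against 3.24 CPM in WTKL and 587 against 4.24 in LYZKL. Histone copies are nearly identical and their RNA mostly lacks the poly-A tail that the assay captures, so values of single histone genes are uncertain. Of 29 genes outside the members that were among the 40 highest in both libraries, 21 were on no list.

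The G1 genes were mixed in direction. Of 7 measured cyclins and kinases of G1, 4 were higher and 3 lower in these cells in both libraries. Ccne1, cyclin E1, was at 20.8 against 5.92 CPM in WTKL and 35.5 against 6.18 in LYZKL, and Cdk4 at 133 against 88.8 and 145 against 80.1. The D cyclins Ccnd2 and Ccnd3 were lower: Ccnd2 was at 286 against 378 CPM in WTKL and 255 against 318 in LYZKL. E2f8, a repressor of the E2F family, was at 39.6 against 0.493 CPM and at 39.0 against 0.069. Among kinase inhibitors, Cdkn2c was higher (46.9 against 17.2 and 73.6 against 23.5 CPM) and Cdkn1b lower (174 against 229 and 174 against 196).

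All 8 quiescence genes were lower in the cells with S or G2/M genes in both libraries, with medians of -0.67 and -0.78. Il7r, the receptor for the survival cytokine IL-7, was at 419 against 780 CPM in WTKL and 447 against 810 in LYZKL, and Klf2, a factor that keeps T cells at rest, at 336 against 514 and 215 against 383. Cytotoxicity genes differed between the libraries: 15 of 16 were higher in these cells in WTKL (median 0.45) and 3 of 16 in LYZKL (median -0.56). Gzma, granzyme A, was at 1736 against 607 CPM in WTKL and at 324 against 415 in LYZKL, and Gzmb at 1078 against 386 and at 127 against 190.0. Interferon response genes were lower in 14 of 15 in LYZKL (median -0.59) and in 10 of 15 in WTKL, where their median of -0.03 was near that of all genes. Over all genes 46.7% were higher in WTKL and 46.5% in LYZKL. Within CD8-gated cells alone, 12 of 15 measured cytotoxicity genes were higher in the cells with S or G2/M genes in WTKL and 3 of 15 in LYZKL. Of all genes 48.3% and 46.5% were higher there, 18.1% and 16.4% at least 1.5-fold, and 23.9% and 23.7% were that much lower. The difference between the libraries in these lists has no test.

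RNA of other lineages was not higher in the cells with S or G2/M genes for the neutrophil and phagocyte lists. Over the CD8-, CD4- and Foxp3-gated types, the summed level of 6 neutrophil markers was 280 to 432 CPM in them and 418 to 528 CPM in the others of WTKL, and 302 to 479 against 440 to 610 in LYZKL. The 6 phagocyte markers were at 483 to 622 against 685 to 814 CPM in WTKL and at 528 to 673 against 681 to 864 in LYZKL. The 7 B-cell markers were at 394 to 568 against 459 to 919 CPM in WTKL, and the 6 plasma markers at 338 to 374 against 439 to 542. In LYZKL the B-cell markers were lower in the called CD8-gated (184 against 334 CPM) and CD4-gated cells (212 against 259) and higher in the called Foxp3-gated cells (901 against 728). The plasma markers likewise were at 146 against 200.2 CPM in CD8-gated and 139 against 179 in CD4-gated cells of LYZKL, but at 570 against 221 in Foxp3-gated cells. Over all T-gated cells none of these markers was at 0, and S100a8, a neutrophil gene, was at 106 and 96.6 CPM. Their part in the results was not tested.

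Between the libraries the members were higher in LYZKL in CD4 T cells and lower in CD8 T cells. In Foxp3-negative CD4-gated cells, 207 of 3595 WTKL cells (5.76%) and 252 of 3219 LYZKL cells (7.83%) held S or G2/M genes, a ratio of 1.36 (1.14 to 1.62). The gap lay with G2/M: G2/M genes were found in 2.28% of WTKL and 4.66% of LYZKL cells (2.04, 1.57 to 2.66), while cells with S genes alone were 3.48% and 3.17% (0.911, 0.705 to 1.18).

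The members' summed level in CD4-gated cells was 1087 CPM in WTKL and 1493 in LYZKL, a log2 ratio of 0.46. Of the 41 members 39 were higher in LYZKL, 19 of them at least 1.5-fold, where 5.96% of 13366 genes were that much higher and 7.2% that much lower. The members' median log2 ratio was 0.52 against -0.02 over all genes, 0.71 for G2/M members and 0.23 for S members. Mki67 was at 91.1 CPM in WTKL and 171 in LYZKL (log2 ratio 0.91, 0.83 to 0.99), and Cenpf, a kinetochore protein, at 14.4 and 29.4 (1.03, 0.83 to 1.24). Of the mitotic regulators, Ccnb2 was at 18.1 and 32.5 CPM (0.85) and Cdk1 at 19.4 and 25 (0.36, 0.18 to 0.55). The licensing and clamp genes differed little: Pcna was at 123 and 120 CPM (-0.04, -0.12 to 0.04), Mcm4 at 50.3 and 49.2 (-0.03) and Mcm7 at 28.1 and 28.5 (0.02), while Mcm5 was at 13.9 and 18.6 (0.42, 0.20 to 0.65). Of the nucleotide enzymes, Tk1 was at 8.08 and 15.1 CPM (0.91), Rrm2 at 24.4 and 42.5 (0.80) and Tyms at 19.0 and 23.8 (0.32). Stmn1 was at 93.6 and 129 CPM (0.47) and Top2a at 71.5 and 99.96 (0.48). Of 30 further mitosis genes 28 were higher in LYZKL, 13 of them at least 1.5-fold (median 0.56), and of 20 further replication genes 18 were higher (median 0.18).

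Within CD4-gated cells, read from thinned counts, those with at least 2 UMIs of checkpoint receptor genes or Tox held S or G2/M genes in 17 of 582 WTKL cells (2.92%) and 33 of 471 LYZKL cells (7.01%), which gives 2.40 (1.35 to 4.25). CD4-gated cells without them gave 6.31% and 7.97% (1.26, 1.05 to 1.52), so LYZKL was higher on both sides.

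Foxp3-gated cells, the regulatory T cell type named in the title of the study, showed the same direction. The share with S or G2/M genes was 37 of 484 in WTKL (7.64%), against 71 of 550 in LYZKL (12.9%), giving a ratio of 1.69 (1.16 to 2.46), and for G2/M genes it was 4.34% and 8.55% (1.97, 1.19 to 3.25). Cells with S genes alone were 3.31% and 4.36% (1.32, 0.710 to 2.46). Apart from Pcna, which was level, the members were higher in LYZKL, 18 of the 41 at least 1.5-fold, where 5.31% of 10483 genes were that much higher and 7.55% that much lower. Their median log2 ratio was 0.56 against -0.03 over all genes, with 0.81 for the G2/M and 0.29 for the S members. Of the 41 members 25 had an interval above 0 and 0 had one below. Those above 0 included 19 of the 23 G2/M but 5 of the 17 S members, so most S members had an interval that includes 0.

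In Foxp3-gated cells Mki67 was at 171 CPM in WTKL and 297 in LYZKL (log2 ratio 0.80, 0.64 to 0.95). Ccnb1, cyclin B1, was at 10.5 and 28.6 CPM (1.44, 0.86 to 2.07), Cenpf at 23.2 and 64.0 (1.46, 1.07 to 1.87) and Ube2c, the conjugating enzyme of cyclin destruction, at 51.6 and 122 (1.24, 0.97 to 1.51). Cdk1 was at 28.1 and 52.6 CPM (0.90), Ccnb2 at 29.9 and 56.3 (0.91) and Top2a at 107 and 153 (0.51). The early S genes were nearer each other, as in CD4-gated cells: Pcna was at 151 CPM in both (0.00, -0.18 to 0.18), Mcm4 at 70.2 and 75.4 (0.10), Mcm3 at 69.9 and 81.6 (0.22), Mcm5 at 28.8 and 34.0 (0.24) and Tyms at 37.9 and 44.4 (0.23). Tk1, also an S gene, was at 15.1 and 34.4 CPM (1.19, 0.69 to 1.71). Stmn1 was at 170 and 232 CPM (0.45).

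Foxp3-gated cells were split by genes of effector regulatory T cells (Il1rl1, Areg, Klrg1, Ccr8 and Il10): 7.59% and 11.7% of the cells with such a UMI (ratio 1.54, 0.942 to 2.51) and 7.73% and 15% of those without (1.94, 1.06 to 3.52) held S or G2/M genes in WTKL and LYZKL. The first interval includes 1. Compared with the other Foxp3-gated cells of their library, the cells with S or G2/M genes were higher in 7 of 8 growth genes in both libraries (median 0.90 and 0.78). Over all genes 45.8% and 43.0% were higher (median -0.11 and -0.13), so most genes were lower in these cells. At least 1.5-fold higher were 19.2% and 16.3% of all genes, and 30.7% and 27.9% were that much lower. Genes of the regulatory T cell list were lower in 12 of 16 in WTKL and 15 of 15 in LYZKL (median -0.43 and -0.58), and checkpoint genes in 10 of 12 and 12 of 12. Those lists share Ctla4, Ikzf2 and Tigit, and the called cells number 37 and 71. In LYZKL these 71 cells also held more B-cell and plasma RNA than the other Foxp3-gated cells, as given above, and its part in the result was not tested.

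In CD8-gated cells the direction was the opposite. S or G2/M genes were found in 143 of 1936 WTKL cells (7.39%) and 144 of 2544 LYZKL cells (5.66%), which gives a ratio of 0.766 (0.613 to 0.958). G2/M genes were found in 4.44% and 3.50% (0.788, 0.589 to 1.05). The members' summed level was 1494 CPM in WTKL and 1269 in LYZKL, a log2 ratio of -0.24. Of the 41 members 35 were lower in LYZKL, 2 of them at least 1.5-fold, where 5.47% of 12628 genes were that much lower and 12.4% that much higher. The median log2 ratio of the members was -0.23 against 0.12 over all genes, and 20 members had an interval below 0 and 1 above.

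The members with the lowest ratios in CD8-gated cells were Ccnb1 at 12.6 CPM in WTKL and 8.17 in LYZKL (log2 ratio -0.62, -0.98 to -0.27), Cdt1 at 31.1 and 20.2 (-0.62, -0.85 to -0.40) and Ccna2, cyclin A2, at 36.2 and 24.9 (-0.54). Here the licensing genes were lower along with the mitotic ones: Mcm5 was at 17.2 and 12.4 CPM (-0.47), Pcna at 142 and 124 (-0.20), Ccnb2 at 36.3 and 29.8 (-0.29), Cdk1 at 27.1 and 21.5 (-0.33) and Top2a at 102 and 82.0 (-0.31). Stmn1 was at 157 and 131 CPM (-0.26). Mki67 differed least of these, at 126 and 117 CPM (-0.11, -0.21 to -0.01). The highest ratios were those of Tyms at 22.1 and 25.9 CPM (0.23, 0.00 to 0.46), Tk1 at 13.2 and 15.1 (0.19) and Cenpe, a kinetochore kinesin, at 23.3 and 25.7 (0.14). Of 30 further mitosis genes 21 were lower in LYZKL (median -0.15), and of 20 further replication genes 9 were lower (median 0.01).

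**Figure D3:**
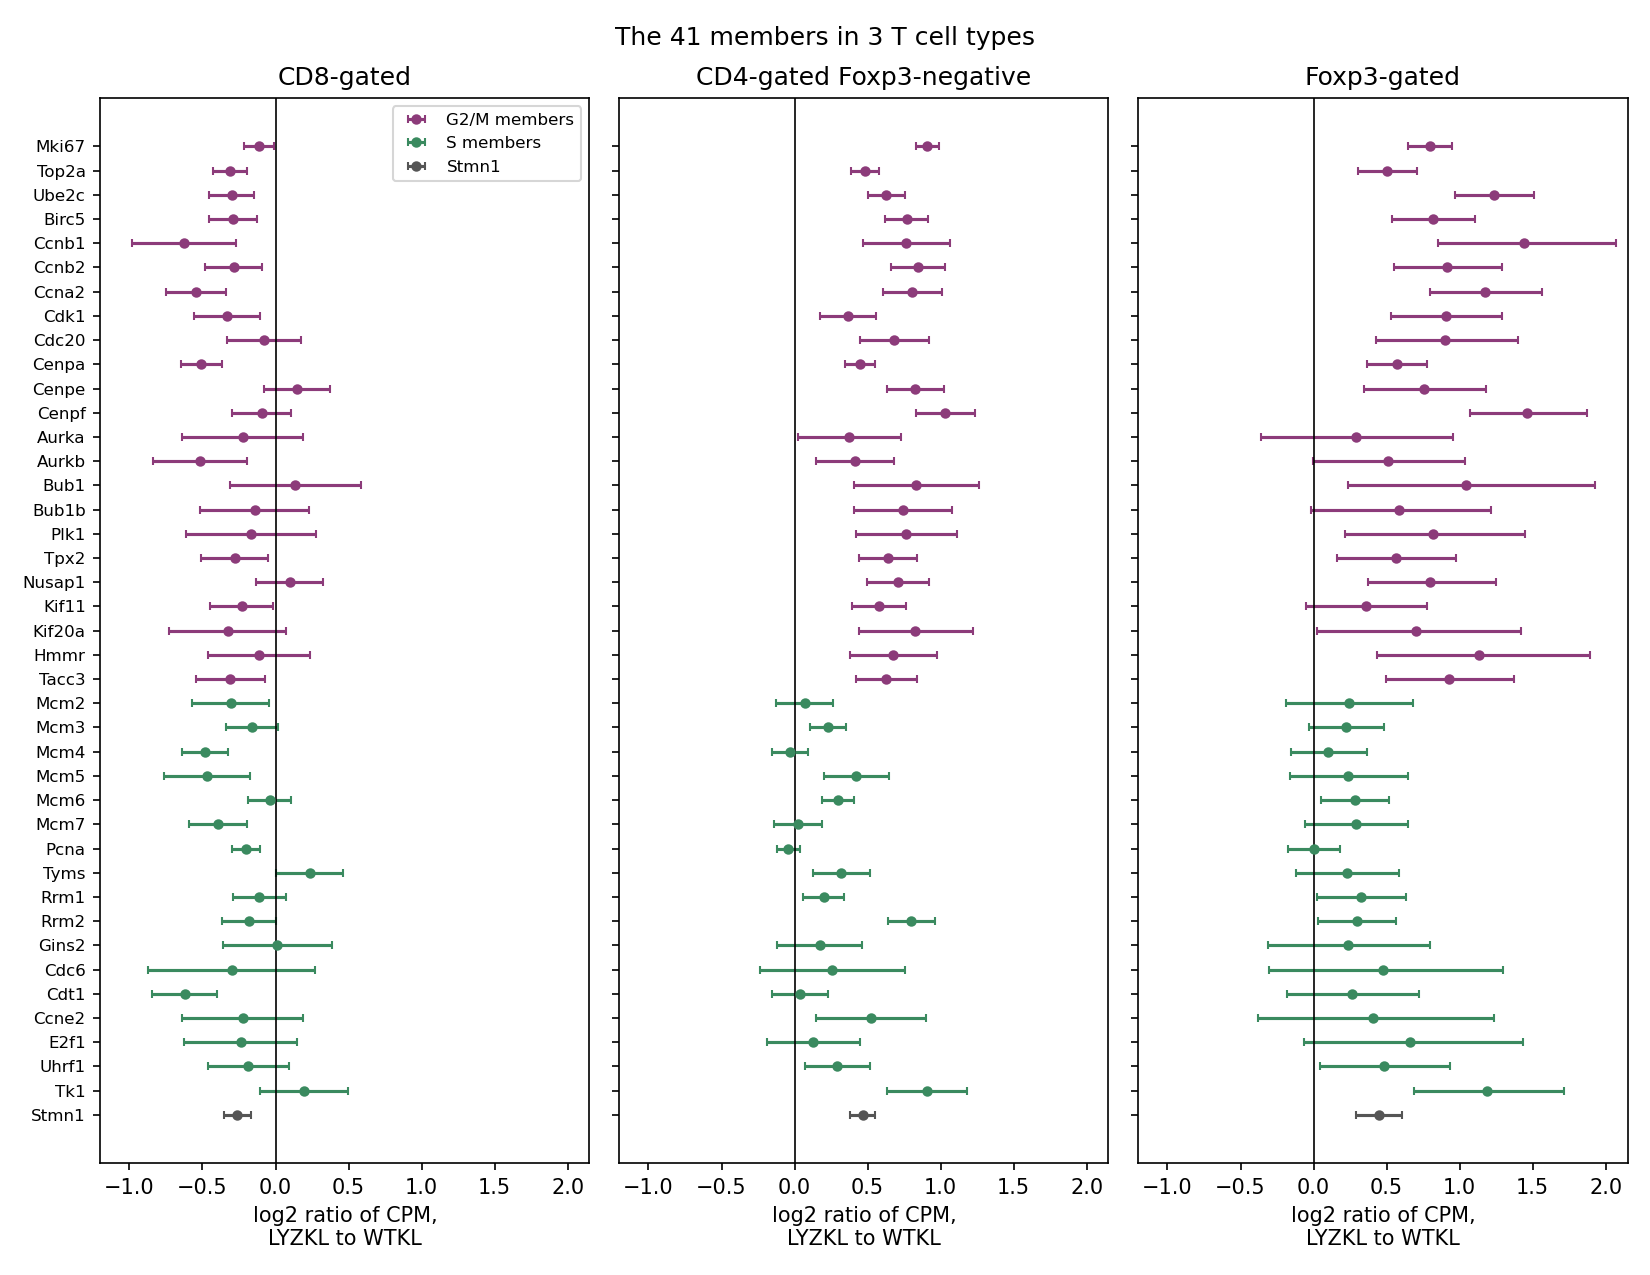
Log2 ratio of CPM, LYZKL to WTKL, of each member in CD8-gated, CD4-gated Foxp3-negative and Foxp3-gated cells, with 95% counting intervals (purple G2/M, green S, grey Stmn1). In CD4- and Foxp3-gated cells the G2/M members lie further above 0 than the S members, and in CD8-gated cells 35 of 41 members lie below 0.

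Within CD8-gated cells the order of the libraries differed with the presence of effector genes, a contrast between subsets that was not tested. Of CD8-gated cells with at least 2 UMIs of Gzma, Gzmb, Gzmk, Prf1 and Nkg7, 123 of 1257 in WTKL (9.79%) and 107 of 1975 in LYZKL (5.42%) held S or G2/M genes, a ratio of 0.554 (0.432 to 0.710). Among CD8-gated cells without them the order turned, with 20 of 679 (2.95%) and 37 of 569 (6.50%), a ratio of 2.21 (1.30 to 3.76). Cells with these genes made up 64.9% of CD8-gated cells in WTKL and 77.6% in LYZKL. Gzma (2718 and 1261 CPM), Gzmb (1640 and 490) and Gzmk (227 and 146) were lower in LYZKL, while Nkg7 (1310 and 1627) and Prf1 (78.5 and 129) were higher. Each side of the split therefore need not hold like cells in the 2 libraries, which was not tested. By single genes, cells with a Gzmb UMI gave 14.3% and 4.36% (0.305, 0.193 to 0.483), and cells without one 3.89% and 5.97% (1.53, 1.11 to 2.11). Cells with a Gzma UMI gave 14.6% and 5.95% and those without 4.68% and 5.59%. Ccl5, a chemokine of memory and effector CD8 T cells, went with 7.87% and 3.96% where present and with 6.28% and 12.6% where absent (2.01, 1.36 to 2.96). CD8-gated cells with a Tox UMI, a factor of exhausted T cells, gave 3.10% and 4.11%.

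Klrg1, a receptor of terminal effector cells, was seen in far fewer CD8-gated cells of LYZKL. Without thinning of that gene, 226 CD8-gated cells of WTKL (11.7%) and 19 of LYZKL (0.747%) had a Klrg1 UMI. Of these, 57 (25.2%, 19.7 to 31.4) and 2 (10.5%, 1.30 to 33.1) held S or G2/M genes, and their median depth before thinning was 7242 and 5211 UMIs. Without these cells the shares were 86 of 1710 (5.03%, 4.04 to 6.17) in WTKL and 142 of 2525 (5.62%, 4.76 to 6.59) in LYZKL, and the log2 ratio of the shares turned to 0.16 and that of the members' summed CPM to 0.28. The order of the libraries thus differed with and without these cells, as it did for cells without Gzmb or without the cytotoxicity genes. The cells without a Klrg1 UMI had a median of 5525.5 and 4617 UMIs, so in WTKL the Klrg1 cells were also the deeper ones; Klrg1 was read on counts that were not thinned, and the part of depth was not tested. The split was chosen after the data were seen.

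**Figure D4:**
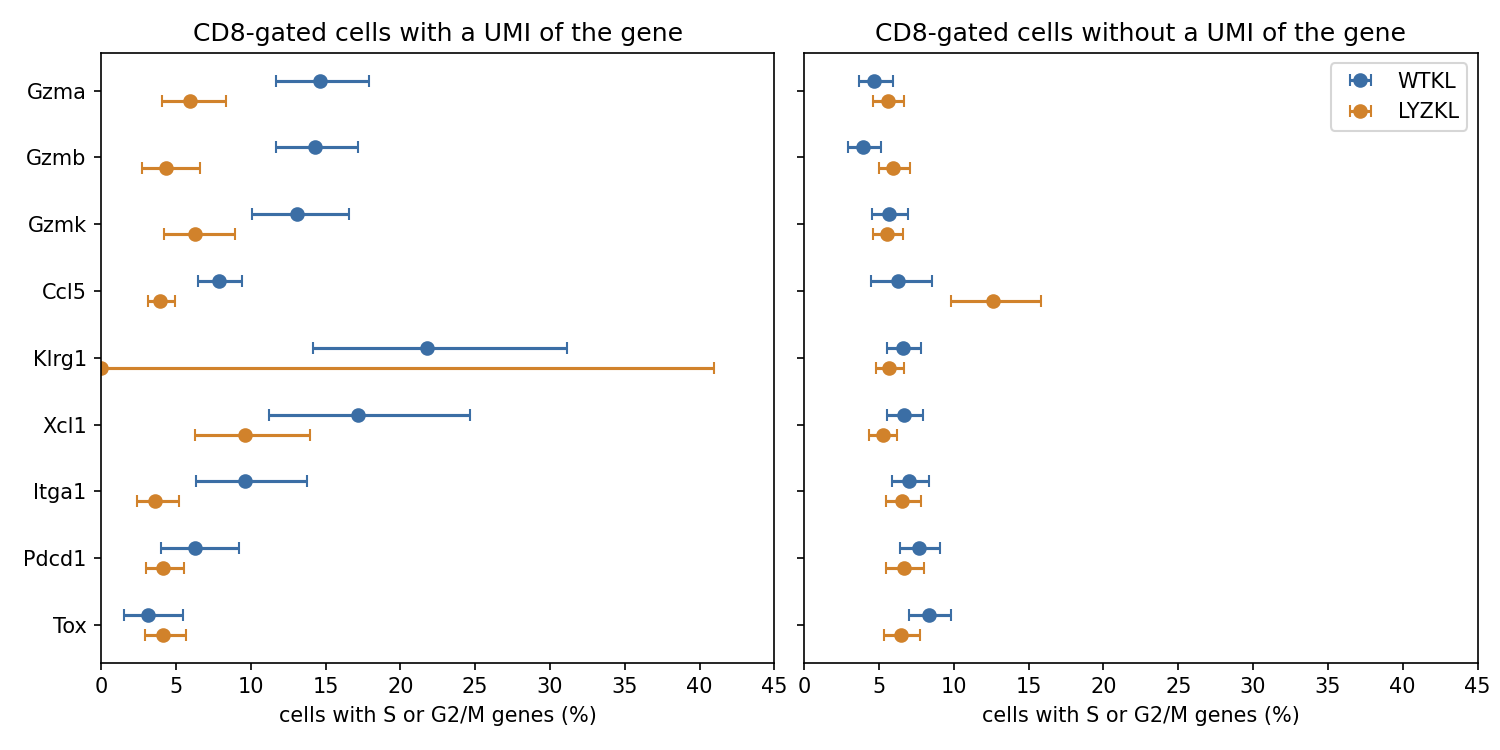
Percent of CD8-gated cells with S or G2/M genes at 2000 UMIs among cells with and without a UMI of 9 effector, tissue and checkpoint genes, WTKL in blue and LYZKL in orange, with 95% counting intervals. Cells with Gzma or Gzmb stand higher in WTKL (14.6 and 14.3%) than in LYZKL (5.95 and 4.36%), and the LYZKL interval for Klrg1 is wide because few cells hold it.

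Over all T-gated cells the difference was smaller than in each of these types. The share with S or G2/M genes was 6.33% (5.80 to 6.91) in WTKL and 7.26% (6.70 to 7.86) in LYZKL, a ratio of 1.15 (1.02 to 1.29). Without the highest Scrublet scores, a measure of joined cells, the shares were 6.29% and 6.81% (log2 ratio 0.11, -0.06 to 0.29), and the T-gated cells so removed gave 7.0% and 12.7%. The members' summed level was 1340 and 1543 CPM (log2 ratio 0.20). Of the 41 members 35 were higher in LYZKL and 0 passed 1.5-fold in either direction, where 6.25% of 15109 genes were that much higher and 5.71% that much lower. The members' median log2 ratio was 0.21 against 0.03 over all genes. Tk1 (12.1 and 17.7 CPM, 0.54), Mki67 (117 and 169, 0.53) and Cenpf (22.2 and 31.8, 0.52) had the highest ratios, and Cdt1 (24.8 and 22.5, -0.14), Mcm4 (55.7 and 50.7, -0.14) and Mcm7 (32.8 and 30.5, -0.11) the lowest. CD8-gated cells made up 25.6% of T-gated cells in WTKL and 32.8% in LYZKL, but 29.8% and 25.5% of those with S or G2/M genes. Foxp3-gated cells made up 6.39% and 7.08% of T-gated cells and 7.71% and 12.6% of those with S or G2/M genes. With the WTKL mix of types, the LYZKL shares would give 7.25%, near the 7.26% observed, and with the LYZKL mix the WTKL shares would give 6.58%, against 6.33% observed.

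The shares and their ratios depended on the depth at which cells were compared. At 1000 UMIs the shares with S or G2/M genes were 2.41% and 4.43% in CD4-gated cells of WTKL and LYZKL (ratio 1.84, 1.41 to 2.38) and in Foxp3-gated cells 3.65% and 8.24% (2.26, 1.33 to 3.84). At 4000 UMIs, which keeps 2663 and 2795 CD4-gated and 304 and 448 Foxp3-gated cells, they were 15.7% and 16.6% (1.06, 0.939 to 1.20) and 20.1% and 21.9% (1.09, 0.820 to 1.45). The call by 3 S genes alone then took in 11% and 9.16% of CD4-gated cells. For G2/M genes the CD4 ratio was 2.33 (1.68 to 3.23) at 1000 UMIs and 1.61 (1.29 to 1.99) at 4000, and the Foxp3 ratio was 2.24 (1.19 to 4.21) and 1.45 (0.957 to 2.20). In CD8-gated cells the ratio for S or G2/M genes went from 0.639 (0.478 to 0.855) at 1000 UMIs to 0.926 (0.792 to 1.08) at 4000. Without thinning, the shares were 22.5% and 30.8% in CD4-gated, 24.7% and 33.7% in Foxp3-gated and 25.6% and 19.7% in CD8-gated cells, at median depths of 4839.5 and 6143.5, 4560 and 6135, and 5633 and 4498 UMIs, so the deeper library was also the higher one in each type. The split by phase at 1000 and 4000 UMIs was added after the data were seen.

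**Figure D5:**
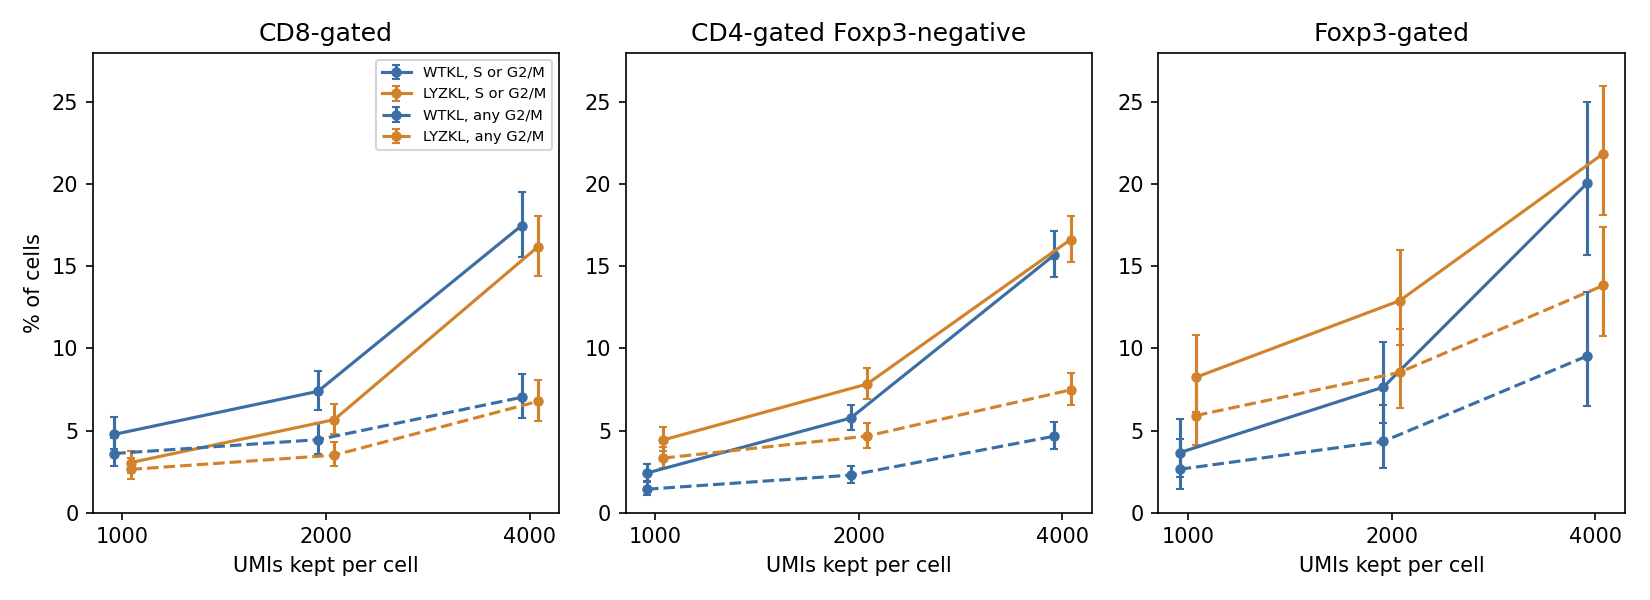
Percent of cells with S or G2/M genes (solid lines) and with G2/M genes (dashed lines) against the thinning depth of 1000, 2000 and 4000 UMIs, by type and library. The libraries draw together at 4000 UMIs for S or G2/M genes, and the CD4-gated G2/M shares stay apart (4.66 and 7.48%).

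The remaining types held fewer member UMIs in total than CD8- and CD4-gated cells, but not all had a lower summed level. Double-positive T cells were at 2405 and 2276 CPM, against 1494 and 1269 in CD8-gated and 1087 and 1493 in CD4-gated cells. Plasma-gated cells were at 1976 and 717 CPM. In double-positive T cells the share with S or G2/M genes was 10.6% and 10.2% (ratio 0.962, 0.692 to 1.34), and 14 of 41 members were higher and 27 lower in LYZKL, 0 of them by 1.5-fold, where 4.96% of genes were that much higher and 4.96% that much lower. Mki67 was at 244 and 271 CPM there and Top2a at 174 and 166. In T cells with neither coreceptor Mki67 was at 50.6 and 57.8 CPM, and 3 of the 40 members with enough UMIs were at least 1.5-fold higher and 3 that much lower, where 5.96% and 6.03% of genes were.

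In B-gated cells the members' sum was 610 and 473 CPM (log2 ratio -0.37) on 870 and 524 UMIs. There 13 members had at least 20 UMIs, 12 of them lower in LYZKL and 4 by at least 1.5-fold, where 6.65% of genes were that much lower and 8.02% that much higher, and Mki67 rested on 17 and 7 UMIs. In phagocyte-gated cells Mki67 was at 24.3 and 36.5 CPM and Top2a at 17.9 and 17.5. Their summed level was 474 and 534 CPM, an order that turned when the lineage minimums were doubled (log2 ratio -0.92). There 4 of 25 members were at least 1.5-fold higher and 1 that much lower, against 9.23% and 8.82% of genes. In neutrophil-gated cells the members' sum was 178 CPM in WTKL and 231 in LYZKL (log2 ratio 0.38, but -0.11 with gates on thinned counts), with Pcna at 60.3 and 83.1 and Mki67 at 14.4 and 22.2, and 9 of 22 members were at least 1.5-fold higher and 1 that much lower, where 12.2% and 7.93% of genes were. These neutrophil levels are below those of T-gated cells, where Pcna was at 133 and 125 CPM. Plasma-gated cells number 36 and 34: 17 of 18 members were at least 1.5-fold lower in LYZKL, where 25.3% of genes were that much lower and 8.7% higher, and Mki67 rested on 89 and 26 UMIs. There 3 of 36 (8.33%, 1.75 to 22.5) and 2 of 34 cells (5.88%, 0.720 to 19.7) held S or G2/M genes, and the 3 in WTKL held 76.9% of the members' thinned UMIs, so the count of members rests on a few cells.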

How the data were processed

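The deposited matrices give unnormalized UMI counts for each gene in each barcode, which the authors made with Cell Ranger 6.1.2 on mm10, per the submitters' processing notes. The kit was 10x Chromium 3' v3.0, per the labels' protocols, and 10000 cells were targeted. The members and lists were chosen with earlier results of these data known.

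Barcodes were kept with at least 500 genes and at most 10% mitochondrially coded UMIs (170 and 31 removed in WTKL, 121 and 35 in LYZKL). Since the labels call every cell a T cell, types were gated on raw marker UMIs: T cells by at least 2 UMIs of Cd3d, Cd3e and Cd3g, split by any UMI of Cd4, Cd8a or Cd8b1, Foxp3 and Trdc, and other lineages by at least 3 UMIs of their panels (plasma 5). Barcodes passing more than 1 lineage were set apart, and those that Scrublet scored highest were left out as an alternative only. Cells under 2000 UMIs were left out of shares, which kept 11409 and 12733.

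CPM are summed UMIs per 1000000 UMIs of the type. Genes with at least 20 UMIs over both libraries were compared, and 1.5-fold was the size used for counts. Intervals are exact Poisson for CPM, exact conditional binomial for CPM ratios, Clopper-Pearson for shares and Katz for ratios of shares. Only the interval of CPM ratios was tried on simulated counts. Those counts were independent, so they do not cover the gathering of member UMIs in few cells. Genes named were 8 fixed ones (Mki67, Top2a, Cdk1, Ccnb2, Pcna, Mcm5, Tyms, Stmn1), the 3 highest and 3 lowest ratios per type, and the most extreme list genes of at least 30 CPM; other members, and single genes that split the CD8-gated cells, were named after their values were seen. Other filters, gates, doublet rules, depths, call rules and scalings were tried as alternatives. Tools were python 3.11.15, numpy 2.4.6, scipy 1.17.1, pandas 2.3.3, scanpy 1.11.5 and edgeR 4.0.16 (TMM factors only). Some results that the rule selects are not reported here.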

Additional observations from a re-analysis of the deposited data

Results flagged for a closer look

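The ratio of LYZKL to WTKL in the share of cells with S or G2/M genes was 0.766 in CD8-gated cells, 1.36 in Foxp3-negative CD4-gated cells and 1.69 in Foxp3-gated cells. The direction is opposite in the first and the other 2 types, and the difference between types was not tested, since each group has 1 library. In CD8-gated cells without a Klrg1 UMI the log2 ratio was 0.16 for the share and 0.28 for the members' summed CPM. The 2 shares overlap in their intervals (4.04 to 6.17% in WTKL and 4.76 to 6.59% in LYZKL). At 4000 UMIs the 3 ratios were 0.926 (0.792 to 1.08), 1.06 (0.939 to 1.20) and 1.09 (0.820 to 1.45), with intervals that include 1.

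Barcodes that passed the gates of more than 1 lineage were left out of the main comparisons and enter only alternatives given below. Of these barcodes 7.38% in WTKL and 8.40% in LYZKL held S or G2/M genes, above the neutrophil-gated shares. Among them, barcodes with T cell and stromal markers gave 57 of 307 (18.6%) and 107 of 558 (19.2%), and those with T cell and neutrophil markers 20 of 381 (5.25%) and 25 of 532 (4.70%). Gates without 4 shared markers (Pecam1, Cdh1, Clec4d and Mmp9) set apart 1165 and 1027 barcodes, where the main gates set apart 1888 and 2352. Many barcodes thus passed a second gate through these 4 markers, and how many are joined cells was not tested.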

How the results depend on the processing

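No paired analysis was possible because each group has 1 library. Values here are log2 ratios, LYZKL to WTKL. The share with S or G2/M genes was 0.20 in all T-gated, -0.38 in CD8-gated, 0.44 in CD4-gated Foxp3-negative and 0.76 in Foxp3-gated cells. The members' summed CPM gave 0.20, -0.24, 0.46 and 0.56. Of 69 alternatives for the share 60 stayed within the interval, 8 moved out of it and 1 reversed, and of 65 for CPM 45, 19 and 1. At 1000 UMIs the share was 0.39 in all T-gated and 0.88 in CD4-gated cells, at 4000 UMIs 0.0057 in all T-gated, 0.084 in CD4-gated and 0.12 in Foxp3-gated cells, and with at least 5 genes per phase 0.40, 0.92 and 1.34 in the same 3. Without the cells with a Klrg1 UMI, an alternative added after the data were seen, CD8-gated cells reversed to 0.16 (share) and 0.28 (CPM). The intervals of those shares overlap (4.04 to 6.17% in WTKL and 4.76 to 6.59% in LYZKL).

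For CPM, removing the highest Scrublet scores gave 0.16 in all T-gated, -0.37 in CD8-gated, 0.38 in CD4-gated and 0.65 in Foxp3-gated cells. Gates on thinned counts gave 0.25, -0.28, 0.54 and 0.29 in the same order, and -0.11 in neutrophil-gated cells, a reversal. Resolving barcodes of more than 1 lineage gave 0.23 in all T-gated cells and a reversal to 0.044 in double-positive cells. Doubled lineage minimums gave 0.48 in Foxp3-gated and a reversal to -0.92 in phagocyte-gated cells. The mean of per-cell CPM gave 0.17 in all T-gated, -0.27 in CD8-gated and 0.41 in CD4-gated cells, and a reversal to 0.024 in double-positive cells. Without Mki67 and Top2a the values were 0.17 in all T-gated and 0.40 in CD4-gated cells, and TMM scaling gave -0.33 in CD8-gated cells. Added after the data were seen were gates without 4 shared markers (0.24 in all T-gated, 0.50 in Foxp3-gated cells) and the data without the barcodes found in both libraries (0.22 in all T-gated cells). The causes of these shifts were not tested. With few UMIs per member and cell, a share of called cells depends on depth, and types of under 50 cells allow no statement.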
